A study of Arabidopsis thaliana with 25 samples.

Results

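The comparison described here is the activation of PEAR1-GR by dexamethasone (DEX) without cycloheximide (CHX), measured on 6 of the 25 arrays of the series. The 3 tested samples were roots of PEAR1-GR seedlings on DEX, labelled 2 h, and the 3 controls were roots of the same line on the solvent DMSO, labelled 1 h. All 6 carried pRPS5A::PEAR1-GR in ecotype Col-0, came from seedlings 4 days old and were run in 1 arraying batch. The whole table has 38408 rows, of which 16746 name exactly 1 gene and are the rows described. The other groups used were DEX (n = 3) and DMSO (n = 3) in the pRPS5A::PEAR2-GR line, with the same times, and DEX+CHX (n = 4) and DMSO+CHX (n = 3) in the PEAR1-GR line, both 2 h. The labels give 1 h for DMSO and 2 h for DEX and nothing else says whether sampling times truly differed. In every value below, an effect of DEX and one of labelled time cannot be told apart. The series holds no seedlings without a GR transgene.

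PEAR1 is a DOF-type transcription factor of the early phloem, whose proteins move into neighbouring cells and promote radial growth of the root. A fusion with the steroid-binding domain of the glucocorticoid receptor (GR) is held in the cytoplasm until DEX, a synthetic steroid, lets it enter the nucleus. The RPS5A promoter drives expression in dividing cells, so the fusion is not limited to the cells that make PEAR1 itself. The samples are whole pieces of root, and in such bulk samples fewer cells of a type and less RNA per cell cannot be told apart. The labels name the tissue both as root and as root tips.

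The authors summarised the arrays with RMA on the log2 scale, where a difference of 1 is a doubling. Arrays correlated at 0.989 to 0.990 within DEX, at 0.989 to 0.990 within DMSO and at 0.985 to 0.989 between them. The first principal component of the 6 arrays held 31.9% of the variance and set the DEX arrays apart from the DMSO arrays. The median SD of a row was 0.176 in DEX and 0.182 in DMSO. No row was named PEAR1, so the level of the fusion was not analysed here. The row of PEAR2 (AT5G02460), the relative of PEAR1, read 6.12, 6.33 and 5.91 in the DEX arrays and 6.46, 6.31 and 6.62 in the DMSO arrays. Its change of -0.34 ± 0.12 (SE) did not pass (limma adjusted p = 0.129). Root hair expansin genes, which mark root epidermis, were bright, with EXPA7 at 10.05, 9.80 and 9.79 in DEX and 9.43, 9.89 and 9.60 in DMSO.

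Activation was followed by 212 rises and 306 falls at a limma adjusted p under 0.05, which are 1.27% and 1.83% of the 16746 rows. Most changes were moderate: 48 rises and 77 falls reached 1 on the log2 scale, and 7 rises and 4 falls reached 2. A further 134 rises and 207 falls lay between 0.5 and 1. The median change was 0.73 among the rises and -0.79 among the falls, against 0.0038 over all rows. In 514 of the 518 calls the 3 DEX values and the 3 DMSO values did not overlap, as was the case in 18.0% of all rows. Fitting the 6 arrays alone, without the spread of the other groups, gave 116 calls, 41 rises and 75 falls. At an unadjusted p under 0.05 there were 2392 rows, 14.3% of all. Whether replicates were grown and treated separately is not stated in the labels, and the p-values rest on a spread that may be technical.

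**Figure D1:**
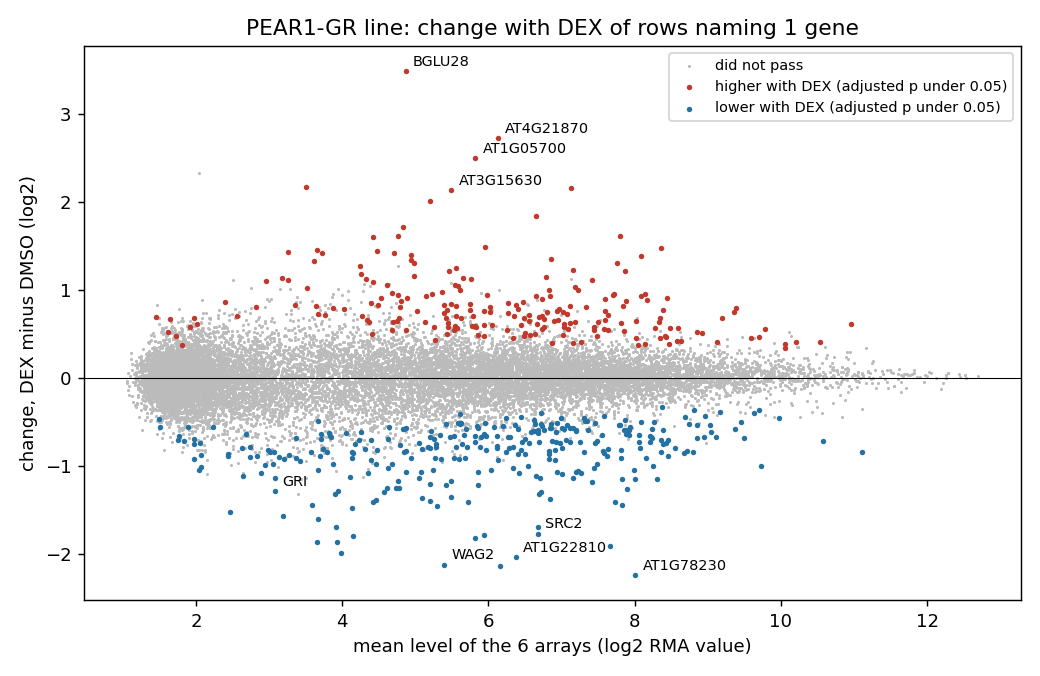
Change with DEX (DEX minus DMSO, log2) against the mean of the 6 arrays for the 16746 rows that name 1 gene. Red points are the 212 rises and blue points the 306 falls at an adjusted p under 0.05, and BGLU28 stands highest at 3.49.

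Calls were more frequent among bright rows. With the rows ordered by their mean over the 25 arrays, the 5582 brightest held 127 rises and 187 falls, the 5582 in the middle 74 and 100, and the 5582 dimmest 11 and 19. The rises had a median of 6.69 in DEX and 5.79 in DMSO, and the falls a median of 5.76 in DEX and 6.61 in DMSO. All called genes found in the RefSeq table were protein coding, as were 16691 of the 16697 rows found over the whole set, and their median gene length was 2136 bases among the rises and 1967 bases among the falls, against 1907 bases over all rows.

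In the tables used, 67 called rows (29 rises and 38 falls) carry a gene symbol, while 183 rises and 268 falls are listed by a locus alone and are given without a role. The largest changes were taken from calls whose DEX and DMSO values did not overlap, so separate groups among them were fixed by that choice. The 25 largest rises so chosen ran from 1.31 to 3.49, and 1 of them has a symbol. The 25 largest falls so chosen ran from -1.40 to -2.24, and 2 of them have symbols, WAG2 and SRC2.

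Largest of the rises was BGLU28, a beta-glucosidase gene known to be induced by sulfur shortage. It read 6.67, 6.77 and 6.41 in the DEX arrays, against 3.84, 2.72 and 2.80 in the DMSO arrays. The lowest DEX value was far above the highest DMSO value, and the first DMSO array stood above the other two. The change was 3.49 ± 0.29 (SE, limma adjusted p = 5.33e-07), or 11.2-fold. The locus next in size, AT4G21870, read 7.61, 7.76 and 7.10 in DEX and 4.87, 4.62 and 4.799 in DMSO, and AT1G05700 read 7.41, 6.85 and 6.96 in DEX and 4.93, 3.93 and 4.86 in DMSO. No DEX value of either came near a DMSO value. AT5G28960, with a row among the dimmest 33.3%, read 4.34, 5.12 and 4.29 in DEX and 2.58, 2.46 and 2.20 in DMSO, a rise of 2.17 ± 0.36. AT3G15630 rose by 2.14 ± 0.21 and AT5G51440 by 1.84 ± 0.27, and all 3 of these loci passed in each fit that left out 1 array. AT1G80380 read 8.25, 8.30 and 8.08 in DEX and 5.53, 6.71 and 5.91 in DMSO, with DMSO arrays less even than DEX arrays. In AT3G15450 the third DMSO array was lowest, at 3.12 beside 4.84 and 4.64, with 5.89, 6.48 and 6.27 in DEX.

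Further down, the locus AT3G54780 read 5.80, 5.72 and 5.55 in DEX, against 3.70, 3.69 and 4.51 in DMSO. AT5G48430 read 8.59, 8.71 and 8.52 in DEX, against 7.27, 6.50 and 7.20 in DMSO. The changes of these loci were 1.72 ± 0.23 and 1.61 ± 0.19. AT2G31730 read 5.58, 5.29 and 5.82 in DEX and 3.95, 3.98 and 3.94 in DMSO, with DMSO arrays almost equal. AT1G07400 read 4.81, 5.10 and 5.77 in DEX and 3.63, 3.53 and 3.72 in DMSO, a rise of 1.60 ± 0.27. AT3G13760, AT1G72416, AT5G61590 and AT1G52200 rose by 1.48, 1.49, 1.46 and 1.39. A second set of loci, AT4G21250, AT2G15880, AT5G60060, AT1G14200, AT4G18340, AT3G12977, AT2G37370 and AT4G20820, rose by 1.31 to 1.45 and passed in at least 5 of the 6 fits that left out 1 array. AT1G54950 rose by 1.44 with an SE of 0.39 and passed in none of those fits.

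On the other side, AT1G78230 read 6.98, 7.06 and 6.63 in DEX and 9.23, 9.06 and 9.12 in DMSO, the largest fall, with a change of -2.24 ± 0.21. AT2G43890 read 4.74, 5.47 and 5.06 in DEX and 7.27, 7.23 and 7.19 in DMSO. Its DMSO arrays were nearly equal and its DEX arrays less even, with a change of -2.14 ± 0.33. WAG2, which encodes a protein kinase that acts on auxin carriers, read 4.33, 4.24 and 4.44 in DEX and 6.21, 6.58 and 6.60 in DMSO. The groups were separate by a wide gap, and the change was -2.13 ± 0.23 (limma adjusted p = 7.78e-06). SRC2, a gene known to respond to cold, read 5.65, 5.89 and 5.82 in DEX and 7.53, 7.46 and 7.68 in DMSO. Its change of -1.77 ± 0.15 had the smallest SE among the 25 largest falls. AT5G67430 read 6.52, 6.72 and 6.89 in DEX, against 8.79, 8.50 and 8.57 in DMSO. AT1G11960 read 5.70, 6.02 and 5.77 in DEX, against 7.45, 7.49 and 7.63 in DMSO. Both loci were lower in every DEX array, by 1.91 and 1.69 on the log2 scale in the mean. AT1G76620 changed by -1.86, AT2G41170 by -1.82, AT1G05450 by -1.80, AT5G57010 by -1.78 and AT2G34610 by -1.60. AT5G54700 changed by -1.86 with a larger error, 0.35, and its DEX values of 3.74, 2.41 and 2.84 were far apart. AT1G22810 changed by -2.04, AT3G50610 by -1.99 and AT5G66816 by -1.69. AT2G22930, AT5G36925, AT1G61930, AT1G63530, AT3G50400, AT1G69480, AT1G77200, AT5G38700, AT4G39720 and AT5G35110 lay between -1.57 and -1.40. Of these, AT4G39720 passed in 3 of the 6 fits that left out 1 array, and the row of AT5G36925 is among the dimmest 33.3%.

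**Figure D2:**
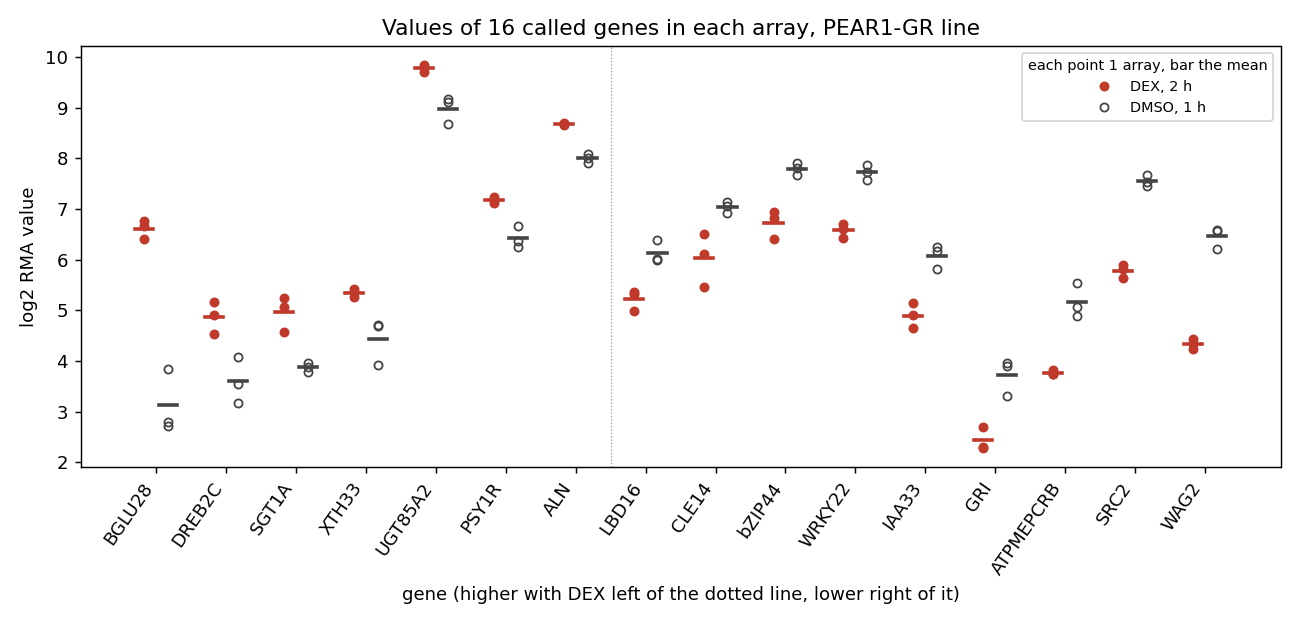
Log2 values of 16 called genes in each of the 6 arrays, with DEX (filled) left of DMSO (open) and a bar at each mean. The 7 genes left of the dotted line were higher with DEX and the 9 right of it lower. No gene shown has overlapping groups, as was so in 514 of the 518 calls.

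The 67 genes with a symbol were placed in groups by role after the calls were known, so the groups describe them and test nothing. Genes that make or release glucosides moved in both directions, with 5 rises and 4 falls. UDP-glycosyltransferases attach sugars to small molecules such as hormones and lignin precursors, and beta-glucosidases release them again. UGT85A2 read 9.71, 9.85 and 9.80 in DEX, against 8.67, 9.17 and 9.11 in DMSO, a change of 0.80 ± 0.12. UGT74F1, which glucosylates salicylic acid, changed by 0.66 ± 0.14, and UGT76B1 by 0.38 ± 0.10. BGLU46, a glucosidase of lignin precursors, read 7.36, 7.38 and 7.34 in DEX and 6.68, 6.39 and 6.66 in DMSO. DEX arrays of BGLU46 were nearly equal and all above the DMSO arrays. UGT76C1, which inactivates cytokinins by attaching glucose to a ring nitrogen, was lower, at 3.94, 4.39 and 4.66 in DEX against 5.68, 5.09 and 5.44 in DMSO. Its change was -1.07 ± 0.16 (limma adjusted p = 0.000275). UGT72E2, which glucosylates lignin precursors, changed by -0.68, UGT87A2 by -0.67 and UGT71C4 by -0.60. Over the family, 3 of 51 UDP-glycosyltransferase genes rose and 4 fell, with a median change of 0.06, and 2 of 22 beta-glucosidase genes rose with a median of 0.01. Over all rows 1.27% rose and 1.83% fell. None of the 7 called UDP-glycosyltransferase genes passed when the 6 arrays were fitted alone.

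Cell wall genes gave 4 rises and 6 falls. XTH enzymes cut and rejoin xyloglucan, the polymer that tethers cellulose, and XTH33 and XTH16 both rose, by 0.91 ± 0.21 and 0.83 ± 0.16. XTH16 read 6.76, 6.92 and 6.71 in DEX, against 6.004, 5.79 and 6.11 in DMSO. TBL34, an acetyltransferase of wall xylan, rose by 0.55 and the peroxidase gene Prx37 by 0.75. All 4 of these rises also passed in the PEAR2-GR line, as did 1 of the 6 falls. The falls included genes of wall loosening and of pectin. ATPMEPCRB, a pectin methylesterase gene, read 3.75, 3.74 and 3.82 in DEX, against 4.89, 5.54 and 5.06 in DMSO, a change of -1.39 ± 0.22. Expansins loosen the wall without cutting its polymers, and EXPA4 read 6.06, 6.21 and 6.16 in DEX and 6.76, 6.87 and 6.91 in DMSO. Its groups were separate and the change was -0.70 ± 0.14. EXLA1 changed by -0.74 and EXPA20 by -0.52. The family 9 endoglucanase genes GH9A3 and GH9C2 changed by -0.82 and -0.50. By family, 2 of 9 XTH genes rose, while 2 of 13 alpha-expansin genes and 2 of 19 family 9 endoglucanase genes fell. These compare with 1.27% rises and 1.83% falls over all rows, and the family medians were -0.07, 0.09 and 0.01. With the 6 arrays fitted alone, none of the 4 rises passed and 1 of the 6 falls did. XTH26 changed by more than either called XTH gene, by 1.13, but its 3 DMSO values ranged from 5.90 to 7.76 and it did not pass (adjusted p = 0.334).

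Genes of transcription gave 4 rises and 6 falls, and each fall was larger in size than 3 of the 4 rises. DREB2C, a factor of the heat and dehydration response, read 5.17, 4.54 and 4.92 in DEX and 4.09, 3.18 and 3.54 in DMSO, with separate groups and a change of 1.27 ± 0.24. NAC014 rose by 0.56, WRKY47 by 0.45 and JKD, a zinc finger factor of root ground tissue, by 0.42. WRKY22, known from immune signalling, read 6.61, 6.71 and 6.42 in DEX and 7.73, 7.57 and 7.87 in DMSO, a change of -1.14 ± 0.14 (limma adjusted p = 3.02e-05). bZIP44 read 6.94, 6.40 and 6.82 in DEX and 7.68, 7.92 and 7.81 in DMSO. Both were lower in every DEX array. IAA33, a member of the Aux/IAA family of auxin signalling, changed by -1.18 ± 0.25, BZIP24 by -1.13 ± 0.27 and MYR2 by -1.07 ± 0.26. LBD16, a factor of lateral root initiation, read 5.32, 5.36 and 4.996 in DEX and 6.003, 6.39 and 6.01 in DMSO, a change of -0.91 ± 0.18. Of 17 bZIP genes 2 fell, of 7 WRKY genes 1 rose and 1 fell, and of 8 Aux/IAA genes 1 fell, against 1.27% rises and 1.83% falls over all rows.

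Peptides, receptors and kinases gave 3 rises and 3 falls. PSY1R, the receptor kinase of a growth-promoting peptide, read 7.12, 7.24 and 7.17 in DEX and 6.67, 6.25 and 6.36 in DMSO. It rose by 0.75 ± 0.15, the protein kinase gene ATSIK by 0.47 and the peptide gene CLE27 by 0.48. The row of CLE27 is among the dimmest 33.3% of rows. CLE14, another peptide gene of this family, read 6.51, 5.46 and 6.12 in DEX against 7.14, 7.06 and 6.91 in DMSO. Its DEX arrays were uneven but all lower, with a change of -1.01 ± 0.16. GRI, an extracellular protein of cell death control, read 2.29, 2.70 and 2.31 in DEX, against 3.96, 3.31 and 3.89 in DMSO, a change of -1.29 ± 0.24 in a row that is also among those. Of 16 CLE genes, 1 rose and 1 fell, against 1.27% rises and 1.83% falls over all rows. None of 18 RALF-like or 75 LCR and SCRL peptide genes passed by limma (1 and 7 at an unadjusted p under 0.05, against 14.3% of all rows). Of the RALF-like rows 9, and of the LCR and SCRL rows 68, were among the dimmest 33.3% of rows, where calls were few.

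The 3 called genes of protein folding all rose, but none of them passed when the 6 arrays were fitted alone, and Hsp70-2 passed in 2 of the 6 fits that left out 1 array. SGT1A, a helper of the HSP90 chaperone, read 5.06, 4.58 and 5.25 in DEX and 3.96, 3.88 and 3.78 in DMSO. Fes1A, which assists HSP70, read 5.92, 5.81 and 6.16 in DEX and 5.33, 5.21 and 4.89 in DMSO. The HSP70 gene Hsp70-2 read 5.77, 5.77 and 6.19 in DEX and 5.23, 5.15 and 5.23 in DMSO. All 3 had separate groups, with changes of 1.09 ± 0.18, 0.82 ± 0.14 and 0.71 ± 0.18. All 15 chaperone and co-chaperone genes with a row had changes above 0, as did 8495 of all 16746 rows. Their median was 0.29, against 0.0038 over all rows, and the family was put together from symbols after the files were seen. In the PEAR2-GR line the median of these 15 was -0.01 and 1 rose.

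Protein turnover and modification gave 6 falls and no rise. The carboxypeptidase-like gene scpl28 read 9.10, 9.37 and 9.21 in DEX and 10.36, 10.29 and 10.02 in DMSO, a change of -0.999 ± 0.15. The ubiquitin ligase genes PUB19 and ATL5 changed by -0.89 and -0.80, the protease genes NANA and SBT3.5 by -0.75 and -0.59, and SEC, which adds a sugar to proteins inside the cell, by -0.36. Of 10 U-box ligase genes 1 fell, against 1.83% of all rows, with a family median of -0.28. None of 27 ubiquitin-conjugating enzyme and ubiquitin protease genes passed by limma (1 at an unadjusted p under 0.05, against 14.3% of all rows).

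Among transporters, the sucrose exporter SWEET13 read 4.93, 5.07 and 4.72 in DEX and 5.73, 5.94 and 5.33 in DMSO, a change of -0.76 ± 0.18. The purine permease gene PUP18 changed by -0.84, and the cation exchanger gene CHX16, which shares only letters with the inhibitor, rose by 0.64. Glutathione S-transferases tag foreign or toxic molecules. Of 14 such genes 1 rose, GSTU27 by 0.77 ± 0.13, and 1 fell, ATGSTF13 with a change of -1.03 ± 0.21. The family median was -0.19, and over all rows 1.27% rose and 1.83% fell. Allantoinase, the ALN gene of purine nitrogen recycling, read 8.67, 8.70 and 8.68 in DEX and 8.02, 7.92 and 8.08 in DMSO. Its 3 DEX values were almost the same and the change was 0.68 ± 0.10. IGPD of histidine synthesis rose by 0.58, ACLA-2 of acetyl-CoA supply by 0.58 and HEME1 of tetrapyrrole synthesis by 0.50. SUFE2 of iron-sulfur cluster assembly changed by -0.67. None of the called genes of transport or primary metabolism passed when the 6 arrays were fitted alone. Of the genes left over, PRN, a pirin, changed by -1.15 ± 0.15, at 7.87, 7.75 and 7.56 in DEX against 8.82, 8.90 and 8.92 in DMSO. TRM27 and TRM28, genes of 1 family of microtubule-associated proteins, moved apart, by 0.61 and -0.57. The acylhydrolase gene DLAH rose by 1.05 ± 0.29 and TET8, a tetraspanin of the membrane, by 0.58 ± 0.12. ZCF37 rose by 0.59, and ATC, a relative of a floral repressor, and NTMC2T6.2 changed by -0.69 and -0.59. CPUORF47, a gene named for an upstream open reading frame, changed by -1.04 ± 0.15, at 5.27, 5.50 and 5.75 in DEX against 6.59, 6.43 and 6.63 in DMSO.

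**Figure D3:**
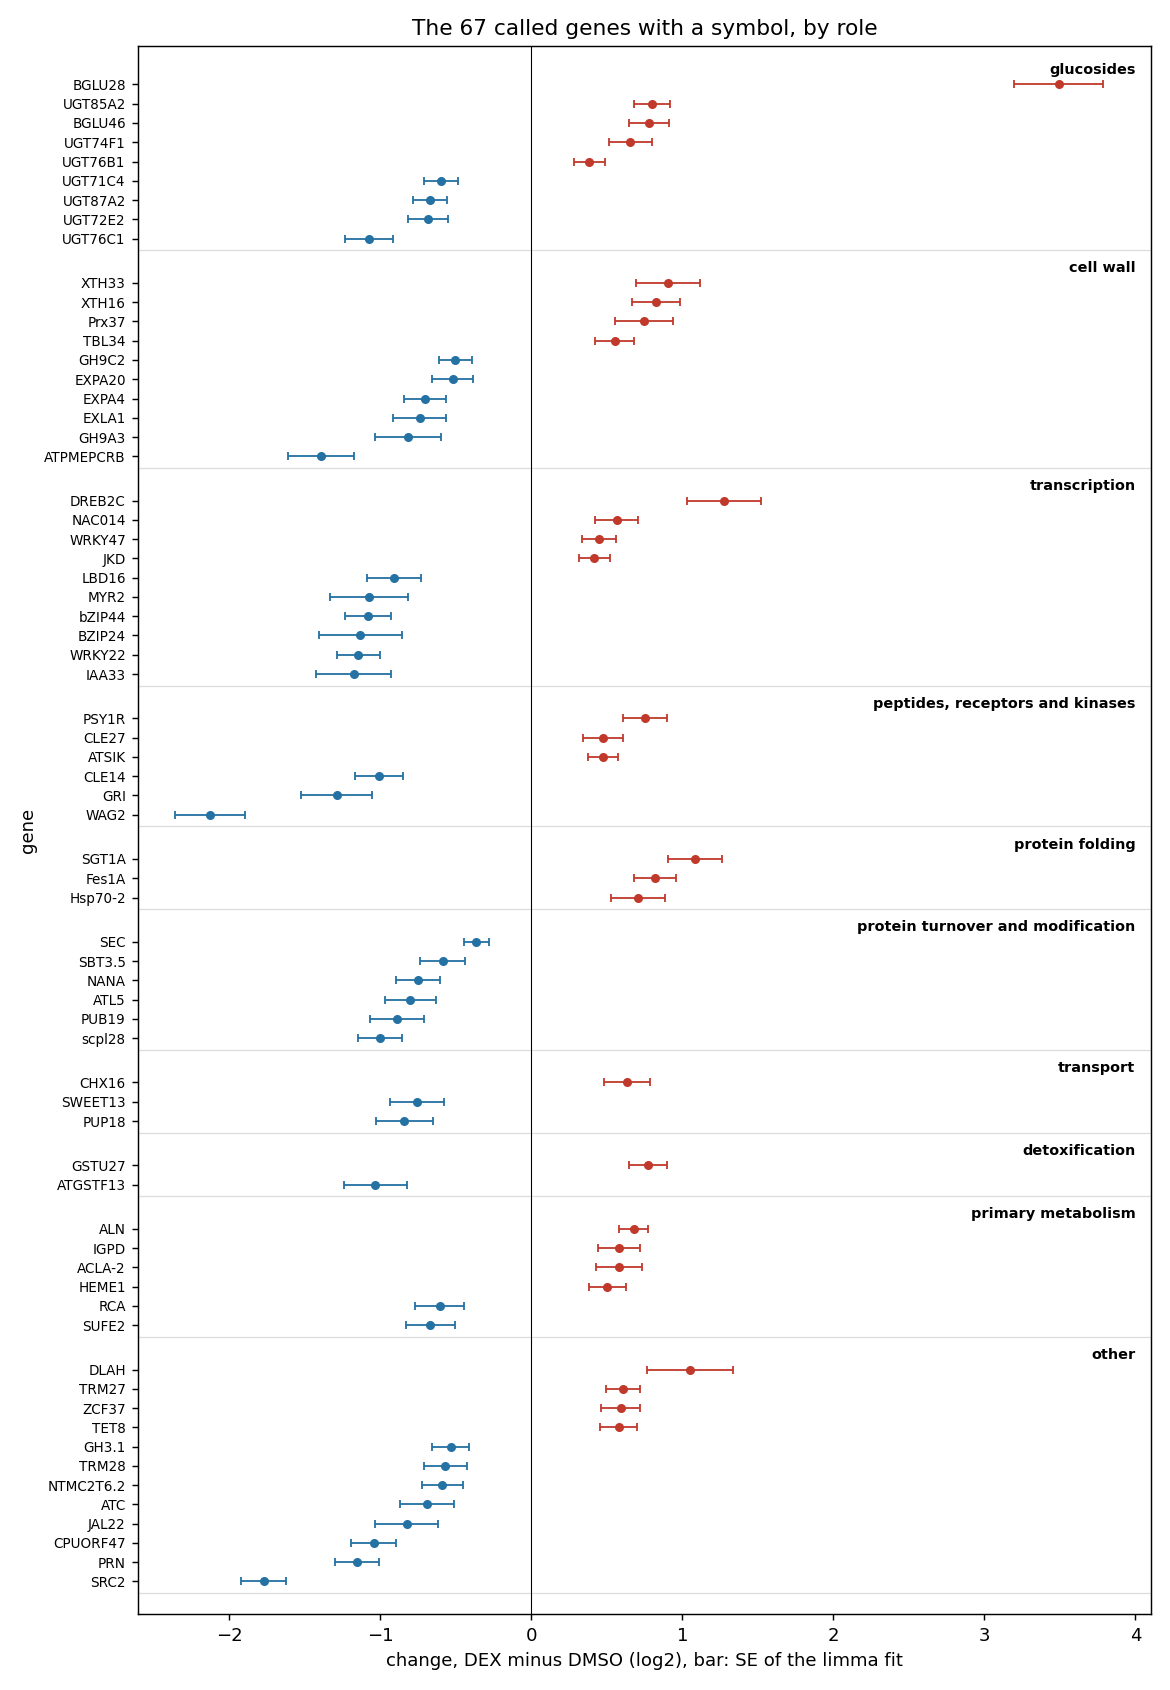
Change with DEX (DEX minus DMSO, log2) of the 67 called genes with a symbol, grouped by role, with the SE of the limma fit as bars. Protein folding has rises alone (3) and protein turnover and modification has falls alone (6), while the other groups hold both directions.

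**Figure D4:**
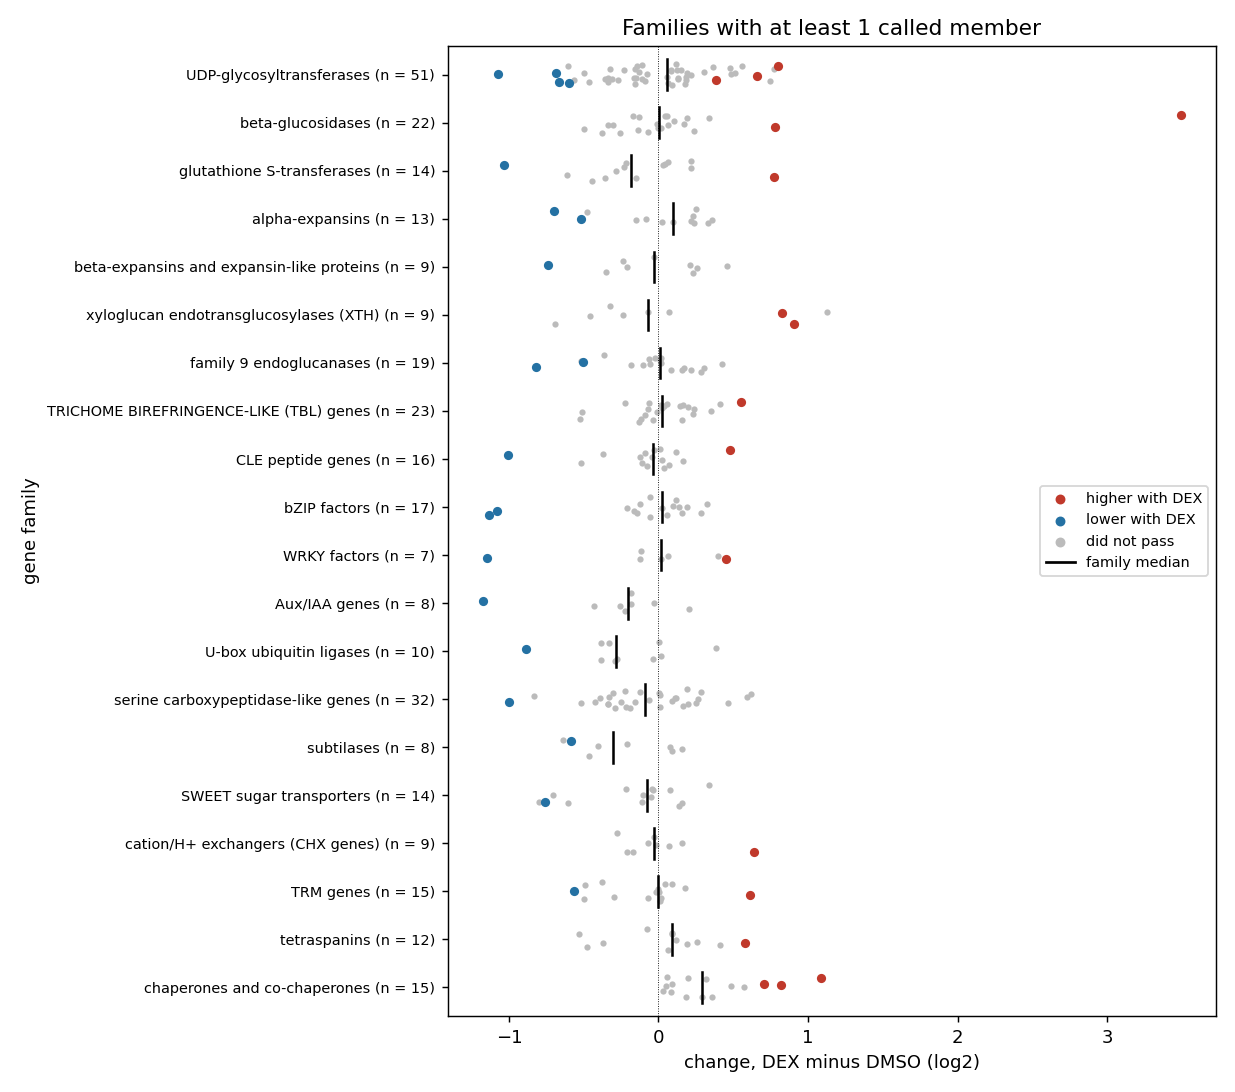
Change with DEX (DEX minus DMSO, log2) of every member with a row in 20 families that hold at least 1 called gene, with black bars at the family medians. The 15 chaperone and co-chaperone genes all lie above 0, as do 8495 of all 16746 rows. The 51 UDP-glycosyltransferase genes spread to both sides with a median of 0.06.

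Lists of genes for processes in the root had few rows, and their counts stand against 1.27% rises, 1.83% falls and 14.3% at an unadjusted p under 0.05 over all rows. Of 35 auxin response genes 11 had a row and 3 fell, WAG2, LBD16 and GH3.1, an auxin-conjugating enzyme gene that changed by -0.53 ± 0.12. Their list median was -0.23, against 0.0038 over all rows. LHW alone of the 11 lay above 0, as did 8495 of all 16746 rows. In the PEAR2-GR line the median of these 11 was 0.23 and 2 fell. None of 6 phloem genes with a row passed by limma (1 at an unadjusted p under 0.05). Of these, 3 lay above 0 and 3 below, from OPS at -0.35 to SWEET11 at 0.08, with a median of -0.06. Of 3 cambium genes none passed by limma (1 at an unadjusted p under 0.05), and CLE41, a peptide gene that promotes cambium division, read 3.52, 4.03 and 4.05 in DEX and 4.30, 4.40 and 4.44 in DMSO (change -0.52, adjusted p = 0.181). Neither of 2 cytokinin response genes, ARR15 and RR16, passed, nor did PHV, the 1 HD-ZIP III gene with a row, at -0.10 (0 at an unadjusted p under 0.05). The clock gene GI changed by 0.28 and did not pass (adjusted p = 0.105). None of 3 early touch and stress genes and none of 3 iron deficiency genes passed by limma (1 of each list at an unadjusted p under 0.05). Of 2 sulfur limitation genes with a row, BGLU28 rose and AT1G04770 did not pass, with a change of -0.44 (adjusted p = 0.375). The sugar starvation list had 3 genes with a row, all called, and the heat list 4 with 3 called, but the locus-only members of both were entered with their rises known. Of the lists of cell type markers, those of endodermis, xylem, root cap and root meristem had no row, and neither root hair gene passed. RCA, rubisco activase, the 1 green tissue marker with a row, read 6.43, 6.36 and 6.19 in DEX and 7.05, 6.61 and 7.13 in DMSO. It changed by -0.61 ± 0.16 (adjusted p = 0.0414), and the part of green tissue in the results was not tested.

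The PEAR2-GR line gave the same contrast on other arrays, with the same difference in time. There 2.17% of the rows rose and 1.97% fell, and the median change over all rows was 0.015. Of the 212 rises in the PEAR1-GR line, 193 had a change above 0 in the PEAR2-GR line and 103 passed there in the same direction. Of the 306 falls, 252 had a change below 0 there and 111 passed. The comparisons have no array in common, but 1 pooled spread per row enters both, which helps rows of low spread to pass in each. By size of the change, the share that also passed was 68.8%, 47.8% and 20% for rises of at least 1, of 0.5 to 1 and under 0.5, and 59.7%, 29.95% and 13.6% for falls of the same sizes. BGLU28 averaged 6.99 in DEX and 2.42 in DMSO in the PEAR2-GR line, and WAG2 averaged 4.22 in DEX and 6.40 in DMSO.

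A test of the difference between the lines' responses called 19 rows (0.113%), of which 6 were called in the PEAR1-GR line. AT1G63740 rose by 0.48 in the PEAR1-GR line and had a change of -0.85 in the PEAR2-GR line. JAL22, a lectin gene, read 5.40, 5.71 and 5.54 in DEX and 6.46, 6.71 and 5.96 in DMSO in the PEAR1-GR line, and averaged 7.20 in DEX and 6.35 in DMSO in the PEAR2-GR line. These 2 passed in opposite directions in the lines. The other 4, AT1G23330, AT4G22610, AT5G47635 and AT1G63530, fell in the PEAR1-GR line and did not pass in the PEAR2-GR line. The difference for AT1G63530 passed narrowly (limma adjusted p = 0.0499). For several genes the responses lay far apart without passing that test. LBD16 changed by -0.91 in the PEAR1-GR line and by 0.08 in the PEAR2-GR line (difference -0.99 ± 0.25, adjusted p = 0.130), and EXPA4 by -0.70 and 0.14 (adjusted p of the difference 0.0999).

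**Figure D5:**
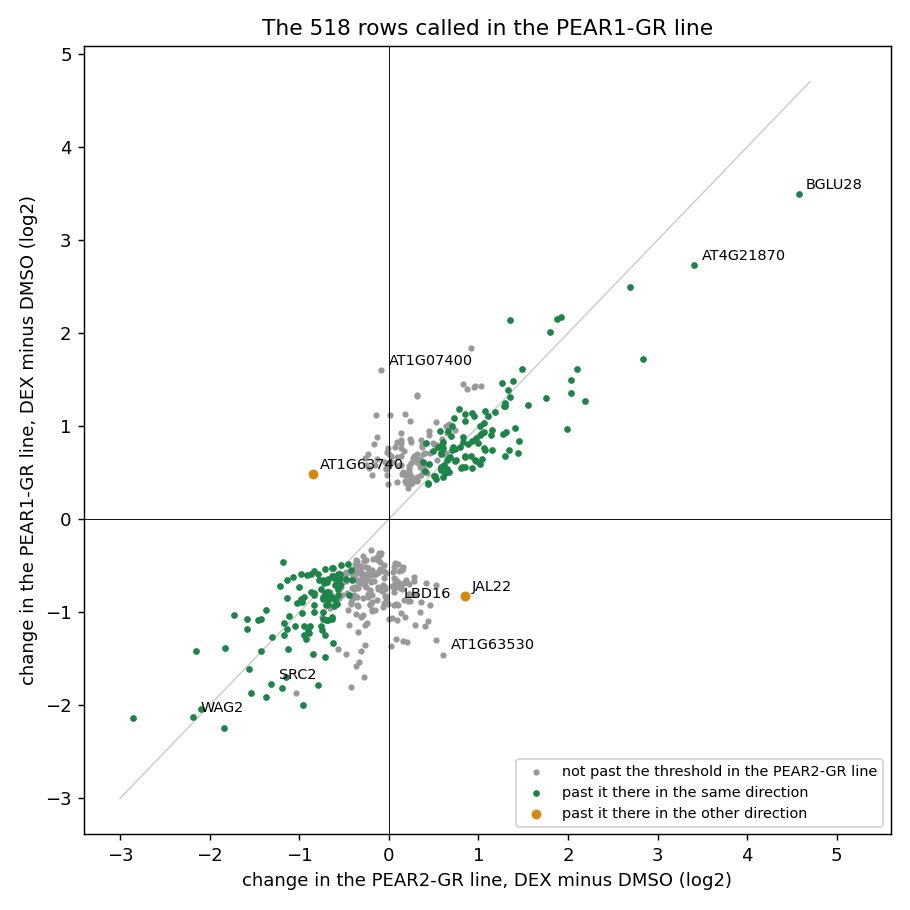
Change with DEX (DEX minus DMSO, log2) in the PEAR1-GR line against that in the PEAR2-GR line for the 518 rows called in the PEAR1-GR line. Green points (214) passed in the same direction in both lines and orange points (2) in opposite directions, and the grey line marks equal change.

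Under CHX, which blocks the making of new protein, DEX+CHX was set against DMSO+CHX in the PEAR1-GR line, where 2.17% of the rows rose and 1.43% fell. The DMSO+CHX arrays were run in another batch than the DEX+CHX arrays, so batch and DEX cannot be told apart there. Of the 212 rises without CHX, 9 also rose with it, 13 fell and 190 did not pass. Of the 306 falls, 9 also fell, 50 rose and 247 did not pass. Among genes with a symbol, TRM27 and UGT76B1 rose in both settings, and UGT72E2 and JAL22 fell in both. ALN and TBL34 rose without CHX and fell with it, whereas LBD16, PUB19, ATL5, UGT71C4 and CPUORF47 fell without it and rose with it. LBD16 averaged 8.83 ± 0.26 (SD, n = 4) in DEX+CHX and 8.21 ± 0.14 (n = 3) in DMSO+CHX. BGLU28 and WAG2 did not pass with CHX, with changes of 0.38 and -0.18.

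How firmly a call stood differed with the arrays in the fit. Of the 518 calls, 214 remained in each of the 6 fits that left out 1 array (83 rises, 131 falls), and 113 remained when the 6 arrays were fitted alone (40 and 73). BGLU28, WAG2, SRC2, ATPMEPCRB, WRKY22, bZIP44, GRI, PRN, scpl28, ATL5, CPUORF47 and GSTU27 passed in all of these fits. Calls with p near the threshold did not: EXPA20, UGT76B1 and ATC passed in none of the 6 fits, and RCA, JKD, WRKY47, CLE27, Prx37, DLAH, ACLA-2 and SBT3.5 in 1 of them.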

How the data were processed

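Total RNA of roots was hybridised to 1-colour Affymetrix arrays. The values deposited by the authors are log2 intensities, processed with RMA according to the submitters' processing notes. RMA corrects background, quantile-normalizes arrays and summarises probes, and its options are not given in the sources used. Rows were named from the platform annotation, updated through RefSeq (TAIR10.1). 16601 of the 16746 rows with 1 gene matched. Groups came from the labels.

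All 25 arrays entered a limma 3.58.1 model (R 4.3.3) of group means with eBayes moderation, and p-values were adjusted by Benjamini-Hochberg over the 17504 rows that name at least 1 gene, with calls at 0.05. Counts are over rows naming 1 gene. Fits were tested on simulated data. The members and lists were chosen with earlier results of these data known.

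Genes named are the 25 largest rises and falls with separate groups, members of 18 lists, and called genes with a symbol. The tables hold no gene descriptions, so the planned keyword classes were replaced by families and roles read from symbols after the files were seen. A gene with several rows is represented in families and lists by its brightest row. The replicate numbers did not pair the samples: deviations of same-numbered DEX and DMSO arrays correlated at 0.03, -0.02 and 0.05. Alternatives were the fits named in the closing section. Precision is limited by the number of arrays. Figures used matplotlib 3.10.9 in Python 3.11.15.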

Additional observations from a re-analysis of the deposited data

Results flagged for a closer look

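The response to DEX differed between the lines, by a test of the difference, in 6 rows called in the PEAR1-GR line. The change in the PEAR1-GR line minus that in the PEAR2-GR line was 1.33 for AT1G63740, -0.79 for AT1G23330, -1.67 for JAL22, -1.54 for AT4G22610, -1.46 for AT5G47635 and -2.07 for AT1G63530. The difference for AT1G63530 passed narrowly (limma adjusted p = 0.0499). In the PEAR2-GR line the SD of this gene was 0.96 in DMSO and 0.03 in DEX.

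Rows that name no gene were outside the comparisons above. In a fit of all rows, 212 of these 20904 rows rose and 321 fell with DEX in the PEAR1-GR line, with largest changes of 2.91 and -2.78. The same fit gave 188 rises and 276 falls among the 16746 rows that name 1 gene. The rows without a gene are unnamed here, so nothing is said of what they measure.

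In UGT71C4 1 of the 4 DEX+CHX arrays stood apart, with a gap to the nearest of 0.883 of the range. That gap was the largest among the 11 genes with a symbol called both without and with CHX, and how often chance gives it was not tested.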

How the results depend on the processing

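The count of calls depended most on which arrays estimated the spread. Against 518 calls (212 rises, 306 falls) there were 116 (41 and 75) with only the groups compared in the fit and 238 (87 and 151) with the 12 arrays without CHX. Leaving out each array gave 334 to 439 calls, 132 to 199 rises and 202 to 266 falls, lowest without PEAR1 DEX replicate 1 in all 3 counts. Rises were 139 without PEAR1 DEX replicate 2. The other settings gave 415 to 655 calls. The replicate block gave 477 calls (190 and 287) and did not move the count by over 1.5 times. Of 114 named calls, 63 were lost with only the groups compared, 40 with the 12 arrays, 12 with array weights, 11 with the replicate block, 7 with all rows of the table, 26, 21 and 22 without PEAR1 DMSO replicate 1, 2 and 3, and 27, 18 and 24 without PEAR1 DEX replicate 1, 2 and 3. None changed sign. By family, the 7 called UDP-glycosyltransferase genes and the 3 called chaperone genes became 0 in the fit of the 6 arrays, with 5 and 2 in the 12 arrays. The smaller fits hold fewer arrays, and the causes were not tested.

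The difference between lines, 19 rows, gave 2 with only the groups compared, 48 with an intensity trend and robust prior, 37 without the dimmest 33.3% of rows, 10 with array weights and 17 with the replicate block, and 5 to 53 when each array was left out. It was 7 without PEAR1 DMSO replicate 1, 12 without PEAR1 DEX replicate 1, 5 without PEAR1 DEX replicate 3 and 8 without PEAR2 DEX replicate 2. Without replicate 2 of PEAR2 DMSO it was 53, and without replicates 1 and 3 of PEAR2 DEX, each in turn, 36 and 33.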

Other observations

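Some called genes were neighbours, where 1.27% of all rows rose and 1.83% fell. How many pairs with 2 calls chance gives was not tested. Of 8304 pairs of neighbouring genes that both have a row, 475 held at least 1 call. In 7 pairs both genes rose, in 3 both fell and in 1 they moved in opposite directions. AT5G51780 and AT5G51790 rose by 1.13 and 1.06, AT3G51340 and AT3G51350 by 1.06 and 0.86, and AT4G21870 and AT4G21880 by 2.73 and 0.81. AT4G24260 and AT4G24265 changed by -0.82 and -1.14. AT3G50340 and AT3G50350 changed by -0.50 and 0.64.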
